A study of Sus scrofa with 4 samples.

Results

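The genes described here encode the machinery of oxidative phosphorylation: the subunits of complexes I to V of the inner mitochondrial membrane, cytochrome c and a few of their assembly factors. They were picked by a rule on gene symbols, set with earlier results of these data known. Every probe set whose only platform symbol starts with NDUF, SDHA to SDHD, UQCR, CYC1, CYCS, COX4 to COX8 or ATP5 was taken, and the probe set of highest mean log2 signal stood for its gene. This gave 65 of the 6765 genes with a single symbol, measured by 83 of 24123 probe sets. Of these, 35 belong to complex I, 5 to complex II, 2 to complex III, 8 to complex IV and 14 to complex V, and 1 is cytochrome c. Of the members, 5 are helpers and no subunit of a finished complex, namely NDUFAF1, NDUFAF2 and NDUFAF3 of complex I, SDHAF2 of complex II and ATP5S, known as coupling factor B.

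In oxidative phosphorylation, complex I takes electrons from NADH and complex II takes them from succinate, ubiquinone hands them to complex III, and cytochrome c carries them on to complex IV, which reduces oxygen. Complexes I, III and IV pump protons out of the matrix, and complex V, the ATP synthase, lets the protons back in to make ATP. Cardiomyocytes are packed with mitochondria and rely on this route for most of the ATP they spend on contraction, so transcripts of its subunits are among the most abundant in the heart. Complexes I, III, IV and V also hold subunits encoded by mitochondrial DNA, and none of these was among the annotated genes.

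RNA came from heart tissue of 4-month-old female Chinese Bama minipigs with myocardial infarction (MI), made by permanent ligation of the left circumflex coronary artery. The border zone and the infarct zone were each sampled after myoblast transplantation and in control animals, with 1 Porcine Genome Array for each of the 4 conditions. In the myoblast group, human skeletal myoblasts in DMEM were injected into the heart muscle of minipigs given cyclosporin A. The labels call the control untreated with treatment none, whereas the study's account of the arrays names its control treatment group, which was injected with DMEM and given cyclosporin A as the myoblast group was. The week of sampling and the number of minipigs behind each array are not given in the sources used here. The grafted cells are human, and human transcripts can reach pig probes only where the sequences are alike.

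No condition has a replicate, so no difference below carries an error between animals, and a gene was called only where the mean log2 ratio over both zones reached 2-fold. Ratios are of myoblast over control within a zone, on linear MAS 5.0 signals in arbitrary units. A signal ranks no gene against another, since probe sets differ in binding. The arrays had medians of 137.0 to 141.8 over all probe sets. The 28S ribosomal RNA control read 13.05 and 13.32 on the log2 scale on the border and infarct arrays after myoblasts, against 13.94 and 13.96 in control, and the ratio of 3′ to 5′ signal of the EF1A control was 3.01 and 2.49 against 4.17 and 4.13. Both RNA measures therefore moved with the treatment, and their part in the results was not tested.

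The tissue carried transcripts of heart muscle, which its label of heart calls for. The zone labels were not checked in this way, and marker values by zone are given with the zone differences below. The labels name a border and an infarct zone, whereas the study's account of the arrays speaks of peri-ischemia tissue. Zone names here follow the labels. Of 20 listed cardiomyocyte markers 14 were measured, all above the median signal, among them TNNT2, MYH7 and ACTC1. The members themselves were among the brightest genes on the arrays, with 51 of 65 in the brightest 10% and a median at percentile 95.3 of all genes. Only NDUFV3 lay below the median signal of all probe sets.

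After myoblast transplantation most oxidative phosphorylation genes had a lower signal than in control, each by a small amount. The median log2 ratio of the 65 genes was -0.39 for the border and -0.30 for the infarct zone, where all genes had medians of 0.02 and -0.00. In the border zone 60 of the 65 had a ratio below 1, against 48% of all genes, and in the infarct zone 57 had, against 50.2%. Of the 65 genes 55 had a ratio below 1 in both zones, against 31.3% of all genes. Only NDUFAF1, CYCS and COX6A1 had a ratio above 1 in both zones, which 33.2% of all genes had. The remaining 7 pointed in opposite directions in the zones. In bulk tissue, fewer cells of a type and less RNA per cell cannot be told apart.

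Markers of the cells in the tissue moved with the treatment as well. The 14 cardiomyocyte markers had a median log2 ratio over both zones of -0.24, 12 were below 1 in both zones, and 11 had both myoblast arrays below both control arrays. The median was -0.07 under quantile normalization, with 6 of 14 below 1 in both zones, and -0.07 under cyclic loess, with 7 of 14. Their summed signal was 254751 and 274242 on the border and infarct arrays after myoblasts and 298583 and 336131 in control. The 11 macrophage and monocyte markers had a median of 0.57, with 7 above 1 in both zones and summed signals of 15337 and 18631 against 11129 and 12302. The 13 skeletal muscle and myoblast markers had a median of -0.38, with 10 below 1 in the mean over zones. Only 5 of them were below 1 in both zones, and 7 pointed in opposite directions. Of these markers 11 were at or below the median signal, MYOD1 and MYF5 among them. The summed signals were 20685 and 24279 after myoblasts and 16573 and 24033 in control. Their median signals were only 23.6 and 23.3 after myoblasts and 38.7 and 38.7 in control, so the sums rest mainly on the few brighter markers. Signal of grafted and of host cells was not told apart. Endothelial markers had a median of 0.48 over 10 genes, with 6 above 1 in the mean over zones and log2 ratios from -1.83 to 5.92. Smooth muscle markers had 0.27 over 7 genes, with 5 above 1, while all 7 T and NK cell markers were dim. Also at or below the median signal were 3 endothelial, 3 macrophage and monocyte and 3 adipocyte markers. The 13 fibroblast markers ran opposite ways in the zones, with a median of 0.23 at the border, where 10 were above 1, and of -0.39 in the infarct, where 11 were below 1. Over both zones their median was -0.16, which turned to 0.06 under quantile normalization and 0.03 under cyclic loess. The 6 adipocyte markers had medians of 0.09 at the border, 0.05 in the infarct and -0.13 over both. The part of these markers in the lower signal of the oxidative phosphorylation genes was not tested.

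**Figure D1:**
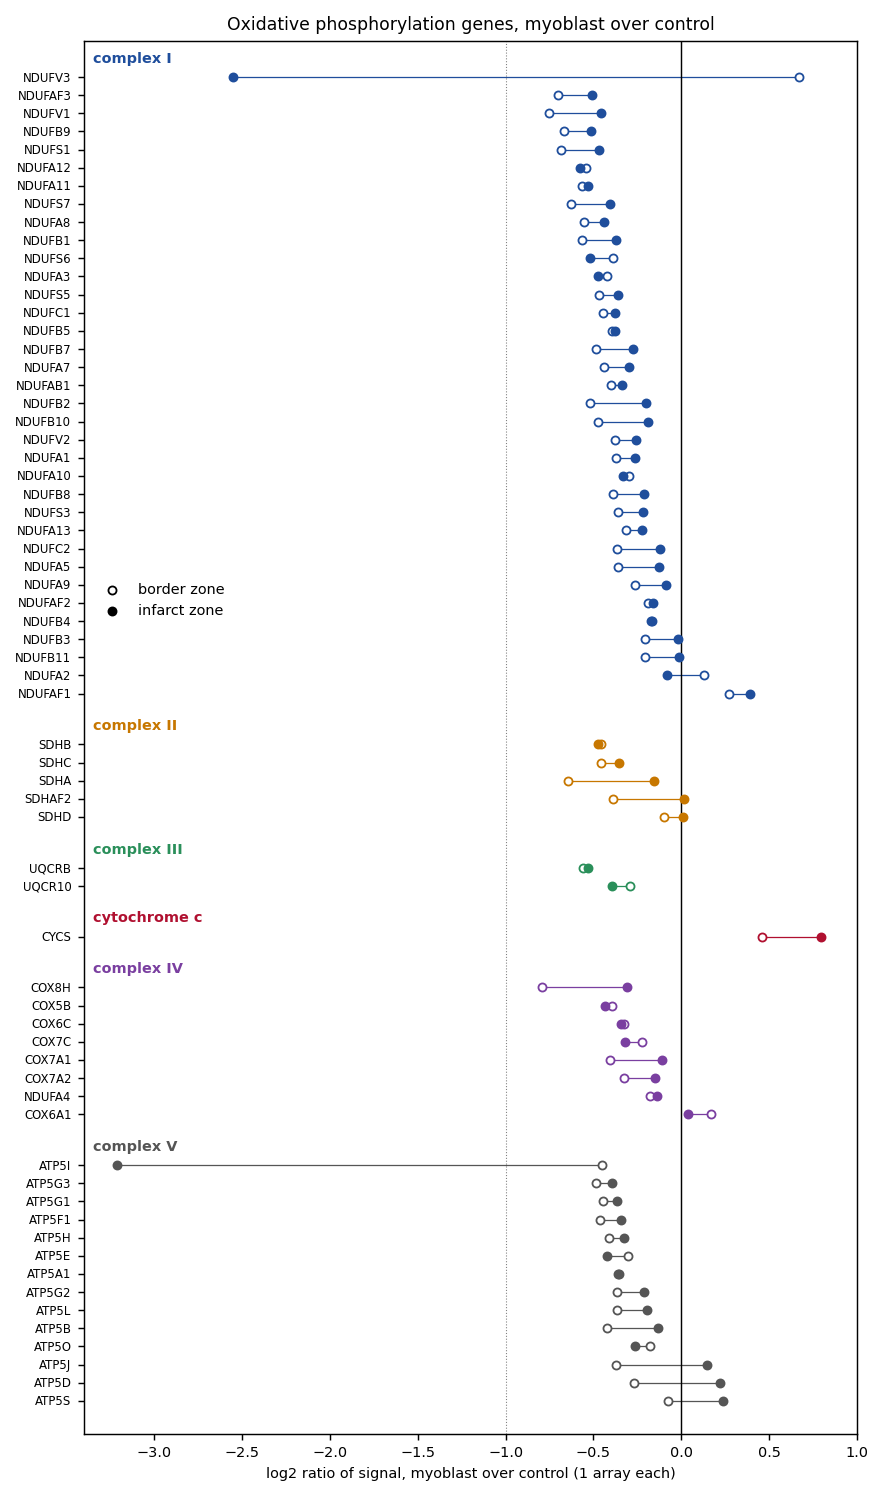
Log2 ratio of signal, myoblast over control, of each of the 65 genes by complex, with the border zone as an open and the infarct zone as a filled circle (1 array each) and a dotted line at 2-fold lower. Most genes lie between 0 and -0.75 in both zones, CYCS stands to the right at 0.46 and 0.80, and only ATP5I and NDUFV3 pass the dotted line, both in the infarct zone.

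Nearly all of the differences were below the 2-fold call. The ratio lay between 0.5 and 1 in both zones for 54 genes, and 45 of the 65 were lower by 1.2-fold or more when both zones were averaged, as were 23.3% of all genes. At least 1.5-fold lower were 5 genes, against 9.9% of all genes. At 2-fold only ATP5I was lower (4.24% of all genes) and none was higher (5.01% of all genes). In a single zone 0 genes passed 2-fold lower at the border (5.71% of all genes) and ATP5I and NDUFV3 did in the infarct (5.69% of all genes). The summed signal of the members was 448806 and 522603 on the border and infarct arrays after myoblasts and 582288 and 637242 in control, so the sums stood at 0.771 and 0.820 of control. The members took 4.69% and 5.36% of the signal of all genes after myoblasts and 5.92% and 6.15% in control.

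The order of the 4 arrays was itself shared. The border array after myoblasts was the lowest of the 4 for 59 of 65 genes (30.3% of all genes), and the control infarct array was the highest for 50 (28.8% of all genes). For 40 genes the whole order was myoblast border, myoblast infarct, control border, control infarct, an order held by 10.2% of all genes. Both myoblast arrays lay below both control arrays for 48 of the 65 (24.1% of all genes) and above them for CYCS and COX6A1 alone (25.4% of all genes). The difference between treatments was larger than that between zones in 51 genes (61.2% of all genes and 66% of the other bright genes).

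**Figure D2:**
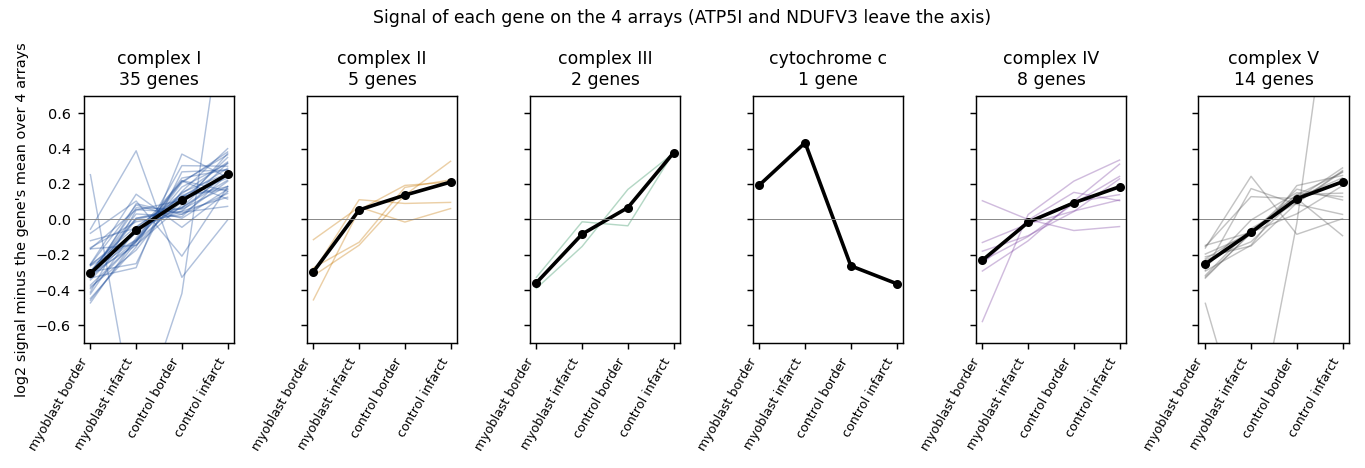
Log2 signal of each gene minus its mean over the 4 arrays, drawn as 1 thin line per gene with the median of the complex in black. On the deposited scale complexes I to V climb from the border array after myoblasts to the control infarct array, whereas cytochrome c is higher on both myoblast arrays.

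Bright probe sets as a whole leaned the same way, but less. Among the 1032 other genes with a mean log2 signal of 11 or more, the median log2 ratio was -0.05 for the border and -0.09 for the infarct zone, 57.9% had a ratio below 1 at the border, 60.9% in the infarct and 46.6% in both zones. Of the 55 members in that range 49 were below 1 in both zones. From 11 to 12 on the log2 scale, 6 of 9 members were below 1 in both zones, with a median over both zones of -0.29. The 563 other genes of that signal had 40.5% and -0.03. From 12 to 13 it was 15 of 17 members and -0.32, against 48.4% and -0.07 for 246 others. From 13 to 14 it was 19 of 20 members and -0.37, against 54.1% and -0.10 for 133 others. From 14 upwards, all 9 members were below 1 in both zones, with a median of -0.33, against 68.9% and -0.16 for 90 others. Of the other bright genes, 43.8% were lowest on the border array after myoblasts, 42.2% were highest on the control infarct array, and 22% held the whole order given above. Both myoblast arrays lay below both control arrays for 37.5% of them and above for 21.1%, 27.7% were above 1 in both zones, 21.2% were lower by 1.2-fold or more and 4.07% by 1.5-fold or more, and 1.16% were lower and 1.84% higher at 2-fold. The SD of the mean log2 ratio across genes was 0.20 for the 55 bright members and 0.37 for other bright genes.

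**Figure D3:**
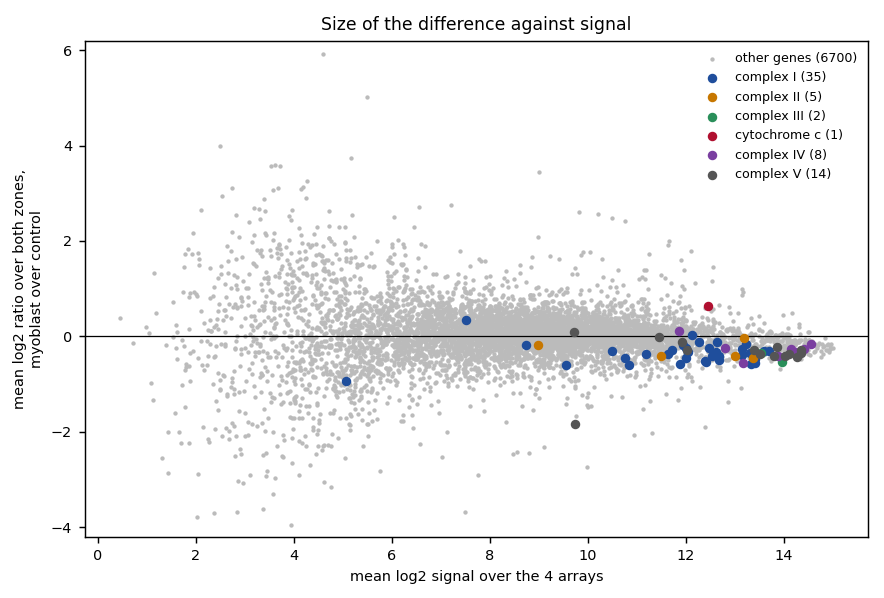
Mean log2 ratio over both zones, myoblast over control, against mean log2 signal over the 4 arrays, with members coloured by complex and the other 6700 genes in grey. The members cluster at the bright end just under the line at 0, at a median of -0.34.

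The scale of the arrays matters for differences of this size. With quantile normalization the median of the 65 genes over both zones was -0.25, with cyclic loess -0.24 and with centring on array medians -0.37, and 51 to 57 genes were below 1 in both zones. Centring each array on the cardiomyocyte markers moved the median of all genes to 0.31 and that of the members to -0.05, with 29 members and 11.9% of all genes below 1 in both zones. This centring adds 0.27 to every log2 ratio of the border zone and 0.32 to every one of the infarct zone, so a ratio below 0.831 or 0.801 respectively stays below 1, and directions are otherwise given on the deposited scale. With it the members' median was -0.12 at the border and turned to 0.02 in the infarct.

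Complex I is the largest complex and the main entry point for electrons, and 32 of its 35 genes had a ratio below 1 in both zones. Its median log2 ratio over both zones was -0.37. The 5 catalytic core subunits measured, most of which carry the flavin or iron-sulfur clusters, had a median of -0.51, and the 27 accessory subunits -0.37. All 19 subunits of the membrane arm were below 1 in both zones, as were 9 of 11 in the matrix arm.

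NDUFV1, which binds NADH and passes its electrons to flavin, had signals of 1339.7 and 1639 on the border and infarct arrays after myoblasts and 2255 and 2250.0 in control. Its ratio was 0.594 at the border and 0.729 in the infarct, and the myoblast arrays did not reach either control array. NDUFS1, the large subunit that holds several iron-sulfur clusters, had signals of 2697 (border) and 3479 (infarct) after myoblasts, against 4338 and 4821 in control, which gave ratios of 0.622 and 0.722. NDUFS7, which carries the last iron-sulfur cluster before ubiquinone, had signals of 6343 in the control border zone and 6555 in the control infarct zone, and 4111 and 4956 in the same zones after myoblasts, with ratios of 0.648 and 0.756. All 3 were lowest on the border array after myoblasts.

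The other core subunits were nearer to control. NDUFV2, the partner of NDUFV1 with an iron-sulfur cluster of its own, had ratios of 0.768 and 0.836, from signals of 4995 and 6214 on the border and infarct arrays after myoblasts and 6499 and 7435 in control. NDUFS3, a structural core subunit of the matrix arm, stood at 0.779 and 0.861 of control by the probe set used, and both of its dimmer probe sets were also below 1 in both zones.

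Among accessory subunits, named after their values were seen, NDUFB9, NDUFA12 and NDUFA11 stood farthest below control of those above the median signal. NDUFB9, on the membrane arm, had signals of 7496 (border) and 9406 (infarct) after myoblasts, against 11886 and 13411 in control, and NDUFA12, on the matrix arm, had 12146 in the control border zone and 14372 in the control infarct zone, and 8353 and 9653 in the same zones after myoblasts. NDUFA11, also on the membrane arm, had 4448 and 4595 on the border and infarct arrays after myoblasts and 6585 and 6637 in control, with hardly a difference between zones within a treatment. At the other end, NDUFB3 and NDUFB11 of the membrane arm stood at 0.987 and 0.990 of control in the infarct zone and at 0.867 and 0.866 in the border zone. By the probe sets used, NDUFA2, a small matrix arm subunit, was the sole bright complex I gene with a ratio above 1 in a zone. It stood at 1.09 in the border and 0.946 in the infarct zone. A second bright probe set of NDUFB3 gave 0.890 in the border and 1.05 in the infarct zone.

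The assembly factors of complex I, which help to build it and then leave, were spread over both directions. NDUFAF3 had the lowest mean ratio of the complex among genes above the median signal, with signals of 600.1 (border) and 625 (infarct) after myoblasts, against 976 and 889.9 in control, with ratios of 0.615 and 0.702. NDUFAF1 had the highest, with signals of 146 in the control border zone and 182 in the control infarct zone, and 176 and 239 in the same zones after myoblasts, with ratios of 1.21 and 1.31, and it stayed above 1 under every scaling tried. Its signals are dim for this set, and the control infarct array lay above the myoblast border array. NDUFV3, a small subunit beside NDUFV1, was dim on every array, at 39.7 and 14.6 on the border and infarct arrays after myoblasts and 24.9 and 85.7 in control, so its ratios of 1.59 and 0.170 compare dim signals.

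Complex II, succinate dehydrogenase, is shared with the TCA cycle and is encoded wholly in the nucleus. The median log2 ratio of its 5 genes over both zones was -0.40, and 3 of the 5 had a ratio below 1 in both zones. SDHB, the iron-sulfur subunit, had signals of 8507 (border) and 9591 (infarct) after myoblasts, against 11671 and 13328 in control, with close ratios of 0.729 and 0.720 in the zones. A dimmer probe set of SDHB did not repeat this, with ratios of 1.37 and 0.743.

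SDHA, the flavoprotein that oxidises succinate, differed mainly in the border zone, with signals of 9327 in the control border zone and 9450.0 in the control infarct zone, and 5954 and 8471 in the same zones after myoblasts, with ratios of 0.638 and 0.896. By this probe set, the infarct array after myoblasts came close to control while the border array stood apart. A dimmer probe set of SDHA, still above the median signal, had a smaller border difference, with ratios of 0.880 and 1.01. Of the membrane anchors that bind ubiquinone, SDHC had signals of 2376 and 2626 on the border and infarct arrays after myoblasts and 3256 and 3353 in control, with ratios of 0.730 and 0.783. SDHD had 8597 (border) and 9770.0 (infarct) after myoblasts, against 9211 and 9712 in control, so its ratios of 0.933 and 1.01 lay close to 1, and its mean ratio changed side with the scaling, above 1 under quantile normalization, cyclic loess and centring on the cardiomyocyte markers. SDHAF2, which attaches flavin to SDHA, had ratios of 0.765 and 1.01.

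Complex III, the cytochrome bc1 complex, was represented by accessory subunits alone, since CYC1, UQCRFS1, UQCRC1 and UQCRC2 were not measured under the rule. UQCRB, which takes part in binding ubiquinone, had signals of 18016 in the control border zone and 20776 in the control infarct zone, and 12225 and 14407 in the same zones after myoblasts, with ratios of 0.679 and 0.693. UQCR10, a small subunit, had 9402 and 11688 on the border and infarct arrays after myoblasts and 11506 and 15342 in control, with ratios of 0.817 and 0.762. UQCRB was lower on both myoblast arrays than on either control array, while for UQCR10 the myoblast infarct array lay slightly above the control border array.

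Cytochrome c went the other way. CYCS encodes the small soluble carrier between complexes III and IV, which is also the protein that sets off apoptosis when it escapes from mitochondria. Its signals were 6381 (border) and 7533 (infarct) after myoblasts, against 4648 and 4335 in control, so both myoblast arrays were above both control arrays. The ratios were 1.37 at the border and 1.74 in the infarct, the highest mean of the 65 genes, and they stayed above 1 in both zones under every scaling tried. CYCS exceeded UQCRB of the preceding complex by 1.17 and COX5B of the following complex by 1.04 in the mean log2 ratio over zones.

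Complex IV, cytochrome c oxidase, had the median nearest to 0 of the complexes. Its 8 genes had a median log2 ratio over both zones of -0.27, which turned to 0.03 when arrays were centred on the cardiomyocyte markers, and 7 of the 8 had a ratio below 1 in both zones. COX5B, a nuclear-encoded subunit on the matrix side of the complex, had signals of 16250.0 in the control border zone and 18799.9 in the control infarct zone, and 12362 and 13917 in the same zones after myoblasts, with ratios of 0.761 and 0.740. COX4I1 and COX5A were not measured under the rule. COX6C, COX7C and NDUFA4, named after their values were seen, are small subunits, and their ratios ran from 0.786 to 0.910 over both zones. NDUFA4 carries a complex I name but is a subunit of complex IV.

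Several complex IV subunits exist in a form for heart and skeletal muscle and a form for other tissues. COX8H, the heart form of subunit 8, had signals of 6133 and 9330.4 on the border and infarct arrays after myoblasts and 10637 and 11555 in control, with the lowest border ratio of the complex, 0.577, and 0.807 in the infarct zone. COX7A1, the muscle form of subunit 7A, had signals of 15105 (border) and 17951 (infarct) after myoblasts, against 20014 and 19376 in control, with ratios of 0.755 and 0.926. Its counterpart COX7A2, found in most tissues, had signals of 7638 in the control border zone and 7868 in the control infarct zone, and 6095 and 7101 in the same zones after myoblasts, with ratios of 0.798 and 0.902. The mean log2 ratios of COX7A1 and COX7A2 were -0.26 and -0.24, a difference of -0.02 between the muscle form and the general form.

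COX6A1, the form of subunit 6A used outside the heart, was the only complex IV gene above control in both zones. Its signals were 3969 and 3688 on the border and infarct arrays after myoblasts and 3531 and 3587 in control, a narrow span, and its ratios were 1.12 and 1.03, the latter of which slipped just under 1 when arrays were centred on their medians. Its muscle counterpart COX6A2 was not measured under the rule, so the pair could not be compared.

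Complex V, the ATP synthase, had a median log2 ratio over both zones of -0.32, and 11 of its 14 genes had a ratio below 1 in both zones. In the catalytic F1 head, ATP5A1, the alpha subunit, had signals of 17670.5 (border) and 18982 (infarct) after myoblasts, against 22574 and 24392 in control, with ratios of 0.783 and 0.778. ATP5B, the beta subunit that holds the catalytic sites, had 23049 in the control border zone and 22682 in the control infarct zone, and 17161 and 20703 in the same zones after myoblasts, with ratios of 0.745 and 0.913. Both were lower on the myoblast arrays than on either control array.

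The small subunits of the central stalk differed from each other. ATP5E, the epsilon subunit, had signals of 15185 and 15842 on the border and infarct arrays after myoblasts and 18754 and 21208 in control, with ratios of 0.810 and 0.747. ATP5D, the delta subunit, had 2515 (border) and 3057 (infarct) after myoblasts, against 3034 and 2623 in control, with opposite ratios of 0.829 and 1.17. Under cyclic loess and centring on the cardiomyocyte markers the mean ratio of ATP5D came out above 1. ATP5O, which ties the head to the peripheral stalk and confers sensitivity to oligomycin, had ratios of 0.884 and 0.833.

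ATP5G1, ATP5G2 and ATP5G3 encode the same mature c subunit of the rotor ring from 3 genes with different import signals, and all were lower in both zones, except ATP5G2 in the infarct zone when arrays were centred on the cardiomyocyte markers. ATP5G3 had signals of 22423 in the control border zone and 23334 in the control infarct zone, and 16038 and 17749.8 in the same zones after myoblasts, with ratios of 0.715 and 0.761. ATP5G1 had 11220.1 and 13429 on the border and infarct arrays after myoblasts and 15309 and 17288 in control, with ratios of 0.733 and 0.777. ATP5G2 had 3558 (border) and 3969.9 (infarct) after myoblasts, against 4579 and 4603 in control, with ratios of 0.777 and 0.862. Every myoblast array lay below every control array for each of the genes.

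The largest difference of the set was in ATP5I, the e subunit, which helps synthase dimers to form. Its signals were 836 in the control border zone and 3072 in the control infarct zone, and 610.4 and 331 in the same zones after myoblasts, so it rested on the control infarct array, which stood far above the other arrays. The ratio was 0.731 at the border and 0.108 in the infarct, and the mean log2 ratio was -1.83, the one 2-fold call. Its other probe set was at or below 19.3 on every array, far below the array medians, with ratios of 0.481 and 1.07. ATP5L, the g subunit that sits beside it, had ratios of 0.775 and 0.875.

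The highest mean ratio of complex V was that of ATP5S, which had signals of 756 and 1001 on the border and infarct arrays after myoblasts and 797 and 848 in control, with ratios of 0.948 and 1.18, and its other probe set gave 1.10 and 1.53. ATP5J, a peripheral stalk subunit named after its values were seen, also differed between zones, at 0.773 and 1.11.

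Across genes, the treatment ratios of the border and infarct zones, which come from different arrays, ran together among bright members. Over the 55 members with a mean log2 signal of 11 or more, Pearson's r was 0.726 and Spearman's rho 0.632, and over the other 1032 genes of that signal Pearson's r was 0.666. Over all 65 members r was 0.056, where NDUFV3 and ATP5I are included. All genes share the 4 arrays and are not independent replicates, so these values describe the arrays. Of the 18 dimmer probe sets of 15 members, 15 had the same sign as the probe set used. A ratio below 1 in both zones was found in 8, against 55 of the 65 probe sets used and 31.3% of all genes. Above the median signal lay 11 of the 18, of which 10 had the same sign and 6 were below 1 in both zones.

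A test was possible only by taking the zones as replicates of the treatment, with 1 residual degree of freedom, which leaves out the spread between minipigs. By limma with treatment and zone as terms over all probe sets, 0 members passed an adjusted p of 0.05 and 0 had an unadjusted p below 0.05 (8.81% of probe sets did), while limma with a mean-variance trend gave 6 members past an adjusted p of 0.05 and 41 with an unadjusted p below 0.05 (16.3% of probe sets). The 6 were CYCS, with an adjusted p of 0.0277 and higher after myoblasts, and NDUFS1, NDUFB9, NDUFV1, NDUFA11 and NDUFA12, with adjusted p from 0.0305 to 0.0395 by limma with the trend and lower after myoblasts. The trend fit called 788 of all 24123 probe sets.

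The zones differed too. Within control, the infarct zone had the higher signal in 55 of 65 genes, with a median log2 ratio of infarct over border of 0.13, against 54.7% of all genes and a median of 0.03. After myoblasts it had the higher signal in 62 genes, with a median of 0.24, against 54.5% of all genes and a median of 0.04. In 52 genes it was higher under both treatments (32.4% of all genes). Of the other bright genes, 65.5% were higher in the infarct zone in control, 64% after myoblasts and 46.7% in both. In control, quantile normalization gave a median of 0.04 with 45 genes higher in the infarct zone, and cyclic loess one of 0.07 with 45. Centring on the cardiomyocyte markers turned the median in control to -0.07, where all genes had -0.16 and 14 members were higher, and left 0.09 after myoblasts, where all genes had -0.10. On the deposited scale the 14 cardiomyocyte markers had medians of 0.16 in control and 0.20 after myoblasts, with 13 and 11 higher. Quantile normalization gave them 0.03 and 0.18. The 19 TCA cycle and pyruvate entry genes had 0.08 and 0.28, with 13 and 18 higher. The 22 import and cristae genes had 0.08 and 0.25, with 15 and 22 higher. The 13 fibroblast markers had 0.06 and -0.56, with 8 and 0 higher. The part of the cell mix in the zone differences was not tested.

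The gap between zones was larger after myoblasts than in control for 48 of 65 genes (49.9% of all genes and 51.6% of the other bright genes). COX8H showed the widest gap of the bright members, at 1.52 after myoblasts and 1.09 in control. SDHA followed, at 1.42 and 1.01, while its dimmer probe set gave 1.36 after myoblasts and 1.19 in control. NDUFA2 and UQCR10 had instead a wider gap in control, at 1.31 and 1.33 against 1.13 and 1.24. COX6A1 was lower in the infarct zone after myoblasts, at 0.929.

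**Figure D4:**
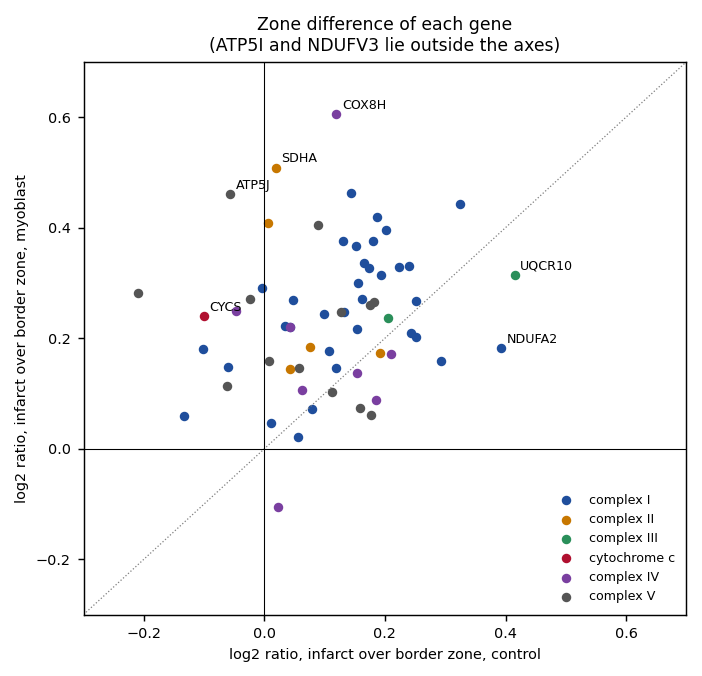
Log2 ratio of infarct over border zone of each gene in control (horizontal) and after myoblasts (vertical), coloured by complex, with a dotted line where both are equal. Most genes lie at upper right and above the dotted line, the medians being 0.13 in control and 0.24 after myoblasts, although the former turns to -0.07 with centring on the cardiomyocyte markers.

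The medians over both zones of 8 other lists, of genes tied to mitochondrial function or to oxidant defence, ran from -0.27 to -0.02. On the scale centred on the cardiomyocyte markers all of these medians lay above 0, between 0.02 and 0.28, where all genes had 0.31. The 19 genes of the TCA cycle and pyruvate entry had a median log2 ratio over both zones of -0.27, with 15 below 1 in both zones. PDHA1, a subunit of pyruvate dehydrogenase, had signals of 1351 (border) and 1812 (infarct) after myoblasts, against 2744 and 2499 in control, with ratios of 0.492 and 0.725. IDH3G, of the NAD-linked isocitrate dehydrogenase, had ratios of 0.622 and 0.747. At the other end stood SUCLG2, of succinyl-CoA ligase, at 0.941 and 1.2, and DLD, the dehydrogenase shared by several complexes, at 0.967 and 1.29.

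The 15 genes of ATP export, phosphocreatine and uncoupling had a median of -0.21, with 11 below 1 in both zones. SLC25A3, which brings in the phosphate that complex V uses, had signals of 23189 in the control border zone and 25644 in the control infarct zone, and 16965 and 18363 in the same zones after myoblasts, with ratios of 0.732 and 0.716. VDAC3, an outer membrane channel, had ratios of 0.773 and 0.874. CKB, the brain-type creatine kinase, stood at 0.895 and 1.21, and AK3, a matrix adenylate kinase, at 1.28 and 1.51.

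The 11 genes of electron entry into ubiquinone and of its synthesis had a median of -0.09, with 5 below 1 in both zones. ETFB, of the electron carrier for fatty acid oxidation, had ratios of 0.552 and 0.850, and ETFDH, which passes those electrons to ubiquinone, had 0.796 and 0.920. SQOR, which oxidises sulfide, was above control with signals of 2363 and 1604 on the border and infarct arrays after myoblasts and 1228 and 1042 in control, with ratios of 1.92 and 1.54. SUOX, which oxidises sulfite and feeds cytochrome c, had ratios of 1.35 and 1.12.

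Among 11 regulators of mitochondrial biogenesis the median was -0.02, and 4 were below 1 in both zones. PPARGC1A, the coactivator known for driving the making of mitochondria, was the only one past 2-fold in the mean over zones. In single zones, 2 of the 11 were at least 2-fold lower at the border (5.71% of all genes) and 0 in the infarct (5.69% of all genes). PPARGC1A had signals of 829 (border) and 1025 (infarct) after myoblasts, against 2403 and 2029.7 in control, with ratios of 0.345 and 0.505. Both myoblast arrays were far below both control arrays. PRKAA2, a catalytic subunit of AMPK, had ratios of 0.760 and 0.944, while YY1 had 1.23 and 1.02 and PPARD, a nuclear receptor, had 1.67 and 0.812.

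Genes that build the complexes had medians nearer to that of all genes. The 14 further assembly factors had a median of -0.09, with 7 below 1 in both zones. TACO1, needed to translate a complex IV subunit, had ratios of 0.436 and 0.776, and ECSIT, of complex I assembly, 0.622 and 0.601. ATPAF1, which helps to assemble F1, was above control at 1.65 and 1.5, and TMEM126B, of complex I assembly, at 1.11 and 1.14. The 58 genes of the mitochondrial ribosome had a median of -0.11, with 29 below 1 in both zones, and ran from MRPL24 (0.700 and 0.401) and MRPS24 (0.629 and 0.599) to MRPL18 (1.12 and 1.32) and MRPL10 (1.15 and 1.35).

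Import and cristae genes had a median of -0.12, with 12 of 22 below 1 in both zones. TIMM50 and TIMM44, of the inner membrane import machinery, had ratios of 0.576 and 0.830, and of 0.681 and 0.756, whereas HSPE1, a matrix chaperonin, stood at 1.02 and 1.01 and TOMM70, an import receptor, at 0.878 and 1.41. Oxidant defence genes had a median of -0.07, with 8 of 20 below 1 in both zones. CAT, the catalase of peroxisomes, was above control at 1.37 and 1.80, as was GPX3, a secreted peroxidase, in the border zone at 2.17, with 0.994 in the infarct zone. PRDX6 and GCLC, for peroxide removal and glutathione synthesis, stood at 0.844 and 0.728, and at 0.764 and 0.888.

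**Figure D5:**
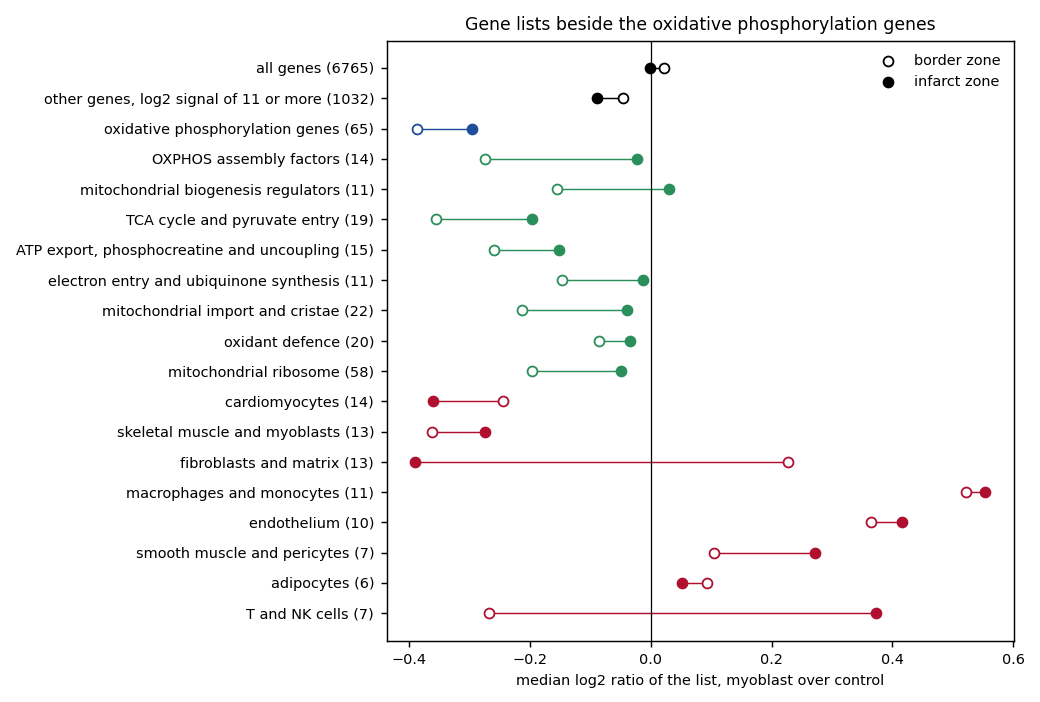
Median log2 ratio of myoblast over control of the oxidative phosphorylation genes (blue), lists of genes tied to mitochondrial function or oxidant defence (green), cell type markers (red) and all genes (black), with the border zone open and the infarct zone filled and the number of genes in brackets. The oxidative phosphorylation genes, at -0.39 and -0.30, lie beside the TCA cycle list and the cardiomyocyte markers, although the infarct median turns to 0.02 with centring on those markers.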

How the data were processed

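Heart RNA of minipigs with MI was measured on 4 Affymetrix Porcine Genome Arrays, 1 per condition. The files hold deposited log2 signals, computed by the authors with the MAS 5.0 algorithm, which scales each array to a common mean, and then handled in Gene Spring Software. Each value is thus relative to the rest of its array, so other scalings were tried. No column of per-sample values was left out.

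Symbols came from the platform annotation, and probe sets with several symbols were left out, 4 of them matching the rule. All 65 members matched the Sscrofa11.1 gene table by gene ID. Of 25 catalytic core genes in the naming rule, 9 had no probe set of their own symbol. Sequences of the members were not used here.

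The log2 ratio of a gene is its log2 signal after myoblasts minus that in control in the same zone, averaged over zones for the call at 2-fold. Groups came from the labels. Genes were named if they were measured core subunits, tissue isoforms, the extremes of a complex or pathway list above the median signal, or members past 2-fold, and any other gene was named after its values were seen. The members and lists were chosen with earlier results of these data known, and the classes of subunits were set after the values were seen. limma 3.58.1 in R 4.3.3 was run as an alternative over all probe sets, tested on simulated data, with Benjamini-Hochberg adjustment. Other steps used Python 3.11.15, pandas 2.3.3 and numpy 2.4.6. Alternatives were centring on array medians, quantile normalization, a floor at each array's median or 25th percentile, a filter on dim probe sets, averaging all probe sets of a gene, subunits only, single zones and other thresholds. Cyclic loess, centring on the cardiomyocyte markers and limma with a trend were added after seeing the data. The number of arrays limits the precision, and no error between animals can be given.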

Additional observations from a re-analysis of the deposited data

Results flagged for a closer look

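In 7 genes the myoblast array lay below control in 1 zone and above it in the other. The log2 ratio in the infarct zone minus that in the border zone was 0.49 for ATP5D, 0.52 for ATP5J, 0.32 for ATP5S, 0.40 for SDHAF2 and 0.11 for SDHD, which were below 1 in the border zone and above 1 in the infarct zone. It was -0.21 for NDUFA2 and -3.23 for NDUFV3, which ran the other way. With 1 array per condition these differences were not tested, and 7 of 65 genes with opposite zones stand beside 2403 of all 6765 genes.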

How the results depend on the processing

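Of 123 alternatives to 11 results, 99 left the value within the difference between zones or the count within 1.5 times. Another 22 moved it further and 2 reversed it. Medians of a single zone were scored against the difference between those same zones, so they could hardly fall outside it. The lower of the floors on signal changed no result, and nearly all members lie above it. Both kinds are counted in the 99, which is therefore no measure of how firm the results are. The cause of the moves under other scalings was not tested. Quantile normalization gave medians over both zones of -0.31 for complex III, -0.13 for complex IV and -0.22 for complex V. Cyclic loess gave -0.24 for all members, -0.27 for complex I, -0.30 for complex III, -0.12 for complex IV and -0.20 for complex V. Centring on the cardiomyocyte markers gave -0.048 for all members, -0.074 for complex I, -0.15 for complex III, -0.030 for complex V, and 0.028 for complex IV, which reversed. It left 29 genes below 1 in both zones in place of 55, and medians of infarct over border zone of -0.065 in control, which reversed, and 0.094 after myoblasts. Genes at least 2-fold lower numbered 1 in the mean over zones, 0 in the border zone alone and 2 in the infarct zone alone. At 1.5-fold 5 were lower and 1 higher, and at 4-fold 0 were lower. By limma at an adjusted p of 0.05 and also at an unadjusted p of 0.05, 0 were lower, while limma with a trend gave 5 lower and 1 higher. The median of complex II, -0.40, stayed within the difference between zones under every alternative run, but moved by over 1.5 times to -0.11 with centring on the cardiomyocyte markers, to -0.23 when every probe set of a gene was averaged and to -0.16 in the infarct zone alone. Single zones give no count of genes below 1 in both zones and no difference between zones. No paired analysis was possible because each group has 1 array, so no replicate block could be fitted, and limma held zone as a term. ATP5I and NDUFV3 rest on dim signals or on 1 array, and small ratios near 1 have no error here.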
